A study of Mus musculus with 44 samples.

Results

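The choroid plexus genes Ttr, Folr1, Kl, Otx2, Aqp1, Clic6, Prlr, Enpp2 and F5, 9 in all, were followed through 36 RNA-seq libraries of dorsal hippocampus, out of 27179 genes counted. They were chosen by symbol as choroid plexus genes, with their levels in these same libraries already known, so their levels and the way they move together are given as a description, without a test. All 9 were found in the counts and all 9 passed the filter on low counts in every comparison. The libraries came from wild-type (WT) mice and from mice homozygous for Kdm5bDARID/DARID (mutants), 1 library per mouse, at 0, 1 and 3 h. There were 6 libraries per genotype and time, of which 3 were labelled male and 3 female. Baseline (0 h) mice were naive, and the others were collected after contextual fear conditioning, in which mice explored a chamber and received 3 foot shocks. The mutation is a constitutive deletion inside Kdm5b, a histone H3K4 demethylase gene, which removes the ARID domain and part of the JmjN domain, and it is carried by every cell and not by hippocampal cells alone. Both genotypes were F2 mice of a C57BL/6J by 129S2/Sv cross, with littermates as controls, so their genetic background was mixed. The mice were 7 to 8 weeks old at tissue collection.

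The choroid plexus is a folded, vascular tissue that lies in the brain ventricles. Its epithelial cells secrete cerebrospinal fluid and form the barrier between blood and that fluid, and they hold carriers, channels and receptors that move hormones, vitamins, water and ions across it. In the lateral ventricle it is attached along the fimbria, next to the hippocampus, and in brain tissue Ttr is known as a marker of this epithelium.

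Library totals ran from 40274435 to 107000233 counts, with a median of 66549999, and no 2 libraries held identical values. Kdm5b itself stood at 86.4 ± 2.84, 90.5 ± 5.99 and 89.2 ± 2.45 CPM (counts scaled to a common library size, mean ± SD, n = 6) in WT at 0, 1 and 3 h and at 80.5 ± 3.89, 86.6 ± 3.42 and 84.4 ± 5.45 CPM in mutants. A count over the whole gene does not separate the deleted part from the rest, so it is a weak check of the genotype labels. In 2 libraries Xist and the Y-linked genes went against the labelled sex, namely WT 1 h male 1 and mutant 3 h female 2. The sex markers do not tell a wrong sex label from an exchange of these 2 libraries, which would also exchange their genotype and time, and which of these holds was not tested. Comparisons that include them are also given without them. Markers of hippocampal neurons, among them Prox1 of dentate granule cells (51.9 to 121 CPM), were present in every library.

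Ttr, which encodes transthyretin, a carrier of thyroxine and of retinol-binding protein, was the most variable member. It ran from 10.9 CPM in WT 3 h female 2 to 7218 CPM in WT 3 h male 3, a 662-fold span with a median of 398.7 CPM over the 36 libraries. Both ends of that span lay within 1 group of the design. The lowest library still held 788 Ttr counts, so depth did not limit the measurement. Levels are CPM scaled by edgeR's trimmed mean of M-values (TMM) factors, which lay between 0.974 and 1.03.

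In WT at 0 h Ttr had a lowest, median and highest level of 11.98, 1905 and 5343 CPM. At 1 h the WT values were 65.9, 933 and 4186 CPM, and at 3 h they were 10.9, 1988 and 7218 CPM. Every WT group thus held at least 1 library with little Ttr and several with much.

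In mutants the lowest, median and highest Ttr levels were 30.0, 146.5 and 2390 CPM at 0 h. They were 27.4, 82.0 and 998 CPM at 1 h and 19.5, 1334 and 3321 CPM at 3 h. By group median the order was WT 3 h, WT 0 h, mutant 3 h, WT 1 h, mutant 0 h and mutant 1 h, and the ranges of all 6 groups overlapped, so no neighbours in this order were separated beyond their spread. Without the 2 libraries with sex markers against their label the median was 1424 CPM in WT at 1 h and 768 CPM in mutants at 3 h, so these groups changed places. Ttr was at 1000 CPM or more in 15 of 36 libraries, 11 of 18 WT and 4 of 18 mutant, and at 100 CPM or more in 25 of 36, 14 WT and 11 mutant. Without those 2 libraries, 11 of 17 WT and 3 of 17 mutant libraries held 1000 CPM or more.

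**Figure D1:**
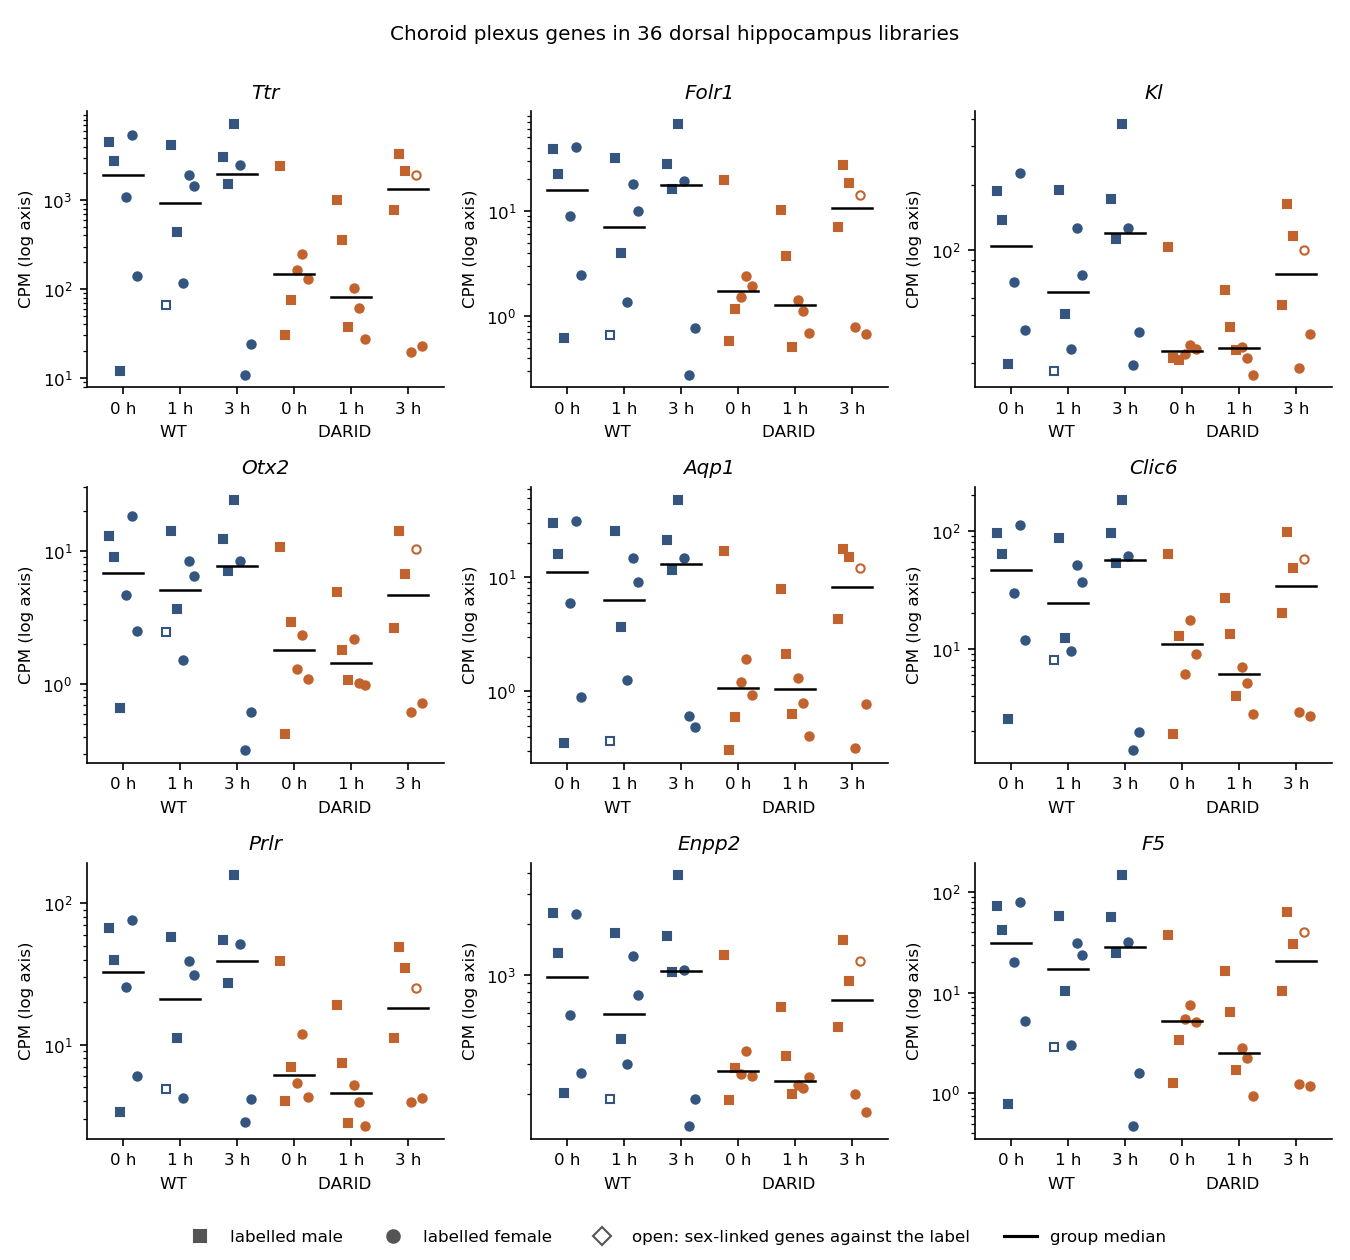
Level of each member in every library, in CPM on a log axis, by genotype (WT blue, DARID mutants orange) and hours after training. Squares are labelled male, circles labelled female, open symbols the 2 libraries whose sex-linked genes go against the label, and bars the group medians. Ttr spans 10.9 to 7218 CPM, and for every member the groups overlap.

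The other carriers and channels spanned from 132-fold to 244-fold. Folr1, the folate receptor that brings folate into cerebrospinal fluid, ran from 0.277 to 67.5 CPM with a median of 3.87, a 244-fold span. Aqp1, the water channel of the apical epithelial membrane, ran from 0.303 to 48.1 CPM with a median of 2.90, a 159-fold span. Clic6, of the chloride intracellular channel family, ran from 1.38 to 183 CPM with a median of 15.5, a 132-fold span. The lowest library held 20 counts of Folr1 and 20 of Aqp1.

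Among the receptors and the transcription factor the spans were narrower. Prlr, the prolactin receptor, ran from 2.65 to 158 CPM with a median of 11.1, a 59.5-fold span. Kl, the fibroblast growth factor co-receptor klotho, ran from 26.6 to 381.3 CPM with a median of 47.3, a 14.3-fold span that was the narrowest of the 9. Otx2, the homeodomain factor needed to form and keep the choroid plexus, ran from 0.318 to 24.2 CPM with a median of 2.79, a 76.1-fold span.

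Of the 2 secreted proteins with roles in blood and fluid signalling, Enpp2 spanned less than F5. Enpp2 (autotaxin), which makes lysophosphatidic acid, ran from 130 to 3861 CPM with a median of 389, a 29.7-fold span. F5, coagulation factor V, ran from 0.471 to 146 CPM with a median of 8.89, a 311-fold span that came second to that of Ttr. WT 3 h male 3 was the highest library for all 9 members. WT 3 h female 2 was the lowest for Ttr, Folr1, Otx2, Clic6, Enpp2 and F5, while the lowest was mutant 1 h female 3 for Kl and Prlr and mutant 0 h male 2 for Aqp1. Together the 9 genes took from 0.0174% to 1.2% of a library's counts.

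On the length-corrected scale of CPM per kb of exon, Ttr was the most abundant member by its median of 336 and in 28 of 36 libraries. In the other 8, all with Ttr at 37.7 CPM or less, Enpp2 was the most abundant per kb. The median of Enpp2 was 67.4, that of Kl 5.07 and that of Clic6 3.95 CPM per kb. Folr1, F5, Aqp1, Prlr and Otx2 had medians of 1.68, 1.2, 1.1, 0.723 and 0.660 CPM per kb.

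The members rose and fell together from library to library. On log2 CPM over the 36 libraries, Pearson's r with Ttr was 0.992 for F5, 0.986 for Folr1, 0.981 for Clic6, 0.975 for Aqp1, 0.962 for Otx2, 0.959 for Prlr, 0.956 for Enpp2 and 0.916 for Kl. All 36 pairs of members had an r between 0.911 and 0.992. These points share library preparation and depth and are given without p-values. Since the genes were chosen as markers of 1 epithelium, their agreement is a description and not a finding.

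The relation was also seen inside the groups and without the most extreme libraries. Within the 6 groups (n = 6 each) the lowest r with Ttr of any member was 0.881, for Otx2 in mutants at 0 h, and the highest was 0.999, for F5 in WT at 0 h. With the group means subtracted, r with Ttr ran from 0.936 for Kl to 0.992 for F5. Without the 2 libraries farthest from the median of Ttr, WT 0 h male 3 and WT 3 h female 2, r was 0.921 for Kl and 0.990 for F5. Without the 2 libraries with sex markers against their label it was 0.914 for Kl and 0.992 for F5. Spearman's rho over all 36 was 0.938 for Kl and 0.994 for F5.

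Members differed in the level that remained where Ttr was near its lowest. A straight line of Kl on Ttr, both in CPM, met the axis at 28.4 CPM and rose by 4.19 CPM per 100 CPM of Ttr. The same line for Enpp2 met it at 183 CPM and rose by 45.6. For Folr1, Aqp1 and F5 the lines met the axis at 0.296, 0.343 and 0.291 CPM and rose by 0.847, 0.630 and 1.71 CPM per 100 CPM of Ttr. As background, Kl is also expressed by hippocampal neurons and Enpp2 by oligodendrocytes. The part of those cells in the levels of Kl and Enpp2 was not tested.

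The ratio of each member to Ttr showed the same. Per 100 CPM of Ttr, Kl stood at a lowest, median and highest of 4.17, 11.9 and 270 CPM, and Enpp2 at 42.5, 95 and 1690 CPM. F5 stood at 1.28, 2.21 and 6.68 CPM and Folr1 at 0.699, 0.986 and 5.12 CPM per 100 CPM of Ttr. F5 and Folr1 thus kept closer proportions to Ttr than Kl and Enpp2 did.

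**Figure D2:**
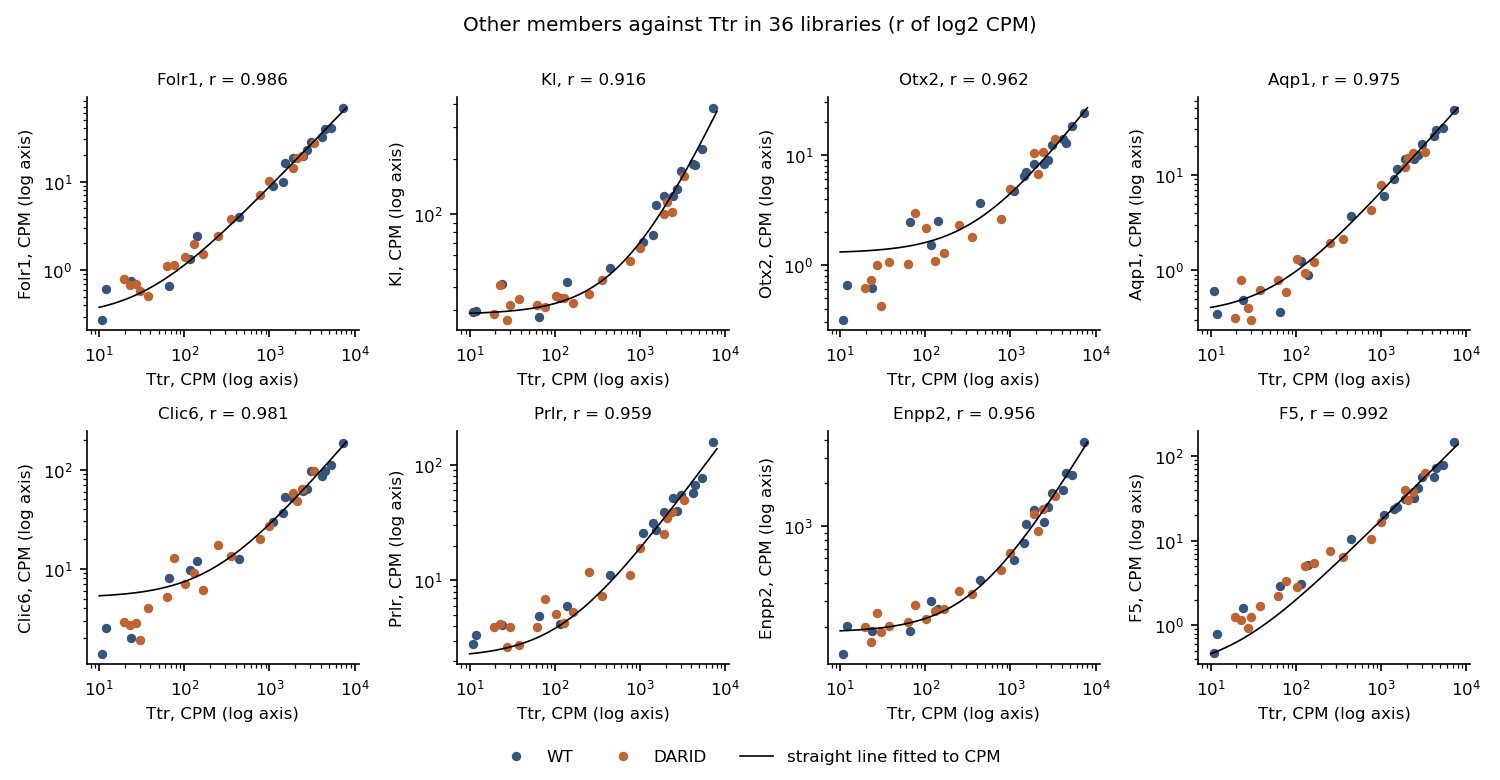
Level of each of the other 8 members against Ttr in 36 libraries, both in CPM on log axes, with WT in blue and mutants in orange. The black line is a straight line fitted to CPM and bends on log axes where its intercept is above 0. Kl and Enpp2 level off near 28.4 and 183 CPM, while Folr1 and F5 follow Ttr to lower levels. Where Ttr is at 37.7 CPM or less, Folr1 lies between 0.277 and 0.787 CPM without a steady rise.

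The 250 bases upstream of the start of F5 and of Kl, the members with the highest and the lowest r with Ttr, are shown for that contrast and were picked after their values were seen. They are from the RefSeq promoter table on GRCm38.p6, both on the plus strand, at chr1:164151585-164151834 for F5 and chr5:150952357-150952606 for Kl, and no annotated exon covers them. Neither holds TAATCC or its reverse complement GGATTA, the letters that OTX homeodomain proteins are known to bind, so no letter is in capitals, and their G and C content was 57.2% and 66.8%.
F5: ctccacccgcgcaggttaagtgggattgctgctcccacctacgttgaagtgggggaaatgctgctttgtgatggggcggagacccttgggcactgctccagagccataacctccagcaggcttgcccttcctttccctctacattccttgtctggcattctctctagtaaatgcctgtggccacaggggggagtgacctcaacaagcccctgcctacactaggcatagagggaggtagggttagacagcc
Kl: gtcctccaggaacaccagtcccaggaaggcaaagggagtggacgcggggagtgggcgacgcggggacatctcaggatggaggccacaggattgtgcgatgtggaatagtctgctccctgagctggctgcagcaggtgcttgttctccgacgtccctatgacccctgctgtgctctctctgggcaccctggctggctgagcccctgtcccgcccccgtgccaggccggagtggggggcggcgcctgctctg

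The table holds such windows for 5 of the 9 members, Kl, Otx2, Aqp1, Prlr and F5, with 10 windows in all because Otx2 and Prlr have several starts. The motif was found in 1 of the 10, at -211 from an internal start of Otx2, in the minus-strand window chr14:48665110-48665359, which annotated exons cover. The 30 bases around it are shown with the motif in capitals. Of all 32851 windows, 6.25%, and 7.21% of the 27025 genes, hold the motif on either strand.
Otx2: cgtgtgcccctcGGATTAtctcgttagttt

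Of the 18185 other genes kept over the 6 groups, 62 (0.341%) had an r with Ttr of 0.9 or more and 929 (5.11%) had an r of 0.5 or more, with a median r of -0.019. The 10 genes outside the members with the highest r were Cldn2 (0.990), Kcne2 (0.983), Slc4a5 (0.982), Kcnj13 (0.982), Tmem72 (0.980), Ecrg4 (0.979), Prr32 (0.974), Abca4 (0.974), Col8a1 (0.972) and Steap1 (0.968). Cldn2 is a pore-forming claudin of leaky tight junctions, Kcne2 and Kcnj13 are potassium channel subunits and Slc4a5 is a bicarbonate transporter. Of the 50 genes most like Ttr, 8 were members, 17 were in a list of 30 other choroid plexus epithelium genes, 25 were in no list and 0 were in any of the other cell type lists.

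That list of 30 followed Ttr closely, with 21 genes at an r of 0.9 or more and a median r of 0.926. Its summed level ran from 219 to 1940 CPM, an 8.88-fold span. Kcne2 ran from 0.0831 to 40.8 CPM, Kcnj13 from 0.142 to 60.1 CPM and Sostdc1, a secreted BMP and Wnt antagonist with an r of 0.943, from 2.42 to 44.3 CPM. Tmem72 and Steap1 each had at least 1 library with no count. Slc22a8, an organic anion transporter that the blood-brain barrier also holds, had the lowest r, 0.385.

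Ependymal genes followed Ttr less closely. Their median r was 0.717, with 0 of 10 genes at 0.9 or more and 7 of 10 at 0.5 or more, and their summed level ran from 12.8 to 96.0 CPM. Foxj1, the regulator of motile cilia, ran from 4.97 to 30.9 CPM with an r of 0.742, and Ccdc153 had the lowest r of the list at 0.253.

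The other lists did not follow Ttr. The median r was -0.046 for fibroblasts of the meninges and choroid stroma, -0.025 for endothelium, -0.031 for thalamus and habenula, 0.031 for striatum, 0.145 for oligodendrocytes and -0.179 for hippocampal neurons, with 0 genes at 0.9 or more in each. Without the 2 libraries with sex markers against their label the median r of these lists ran from -0.172 for hippocampal neurons to 0.0992 for oligodendrocytes, and it was 0.73 for ependyma and 0.924 for the other choroid plexus genes. Of the named examples of the former lists, Col1a1 (4.51 to 14.9 CPM) had an r of -0.092, Cldn5 (11.2 to 40.2 CPM) of -0.19, Tcf7l2 (3.27 to 10.6 CPM) of -0.123, Drd1 (2.86 to 8.23 CPM) of -0.265 and Prox1 of -0.131. Single genes stood apart within them, Six3 of the striatum list at 0.707 and Chrnb4 of the thalamus and habenula list at 0.598. The summed level of the hippocampal neuron list ran from 956 to 1360 CPM, a 1.42-fold span beside 68.7-fold for the sum of the members.

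**Figure D3:**
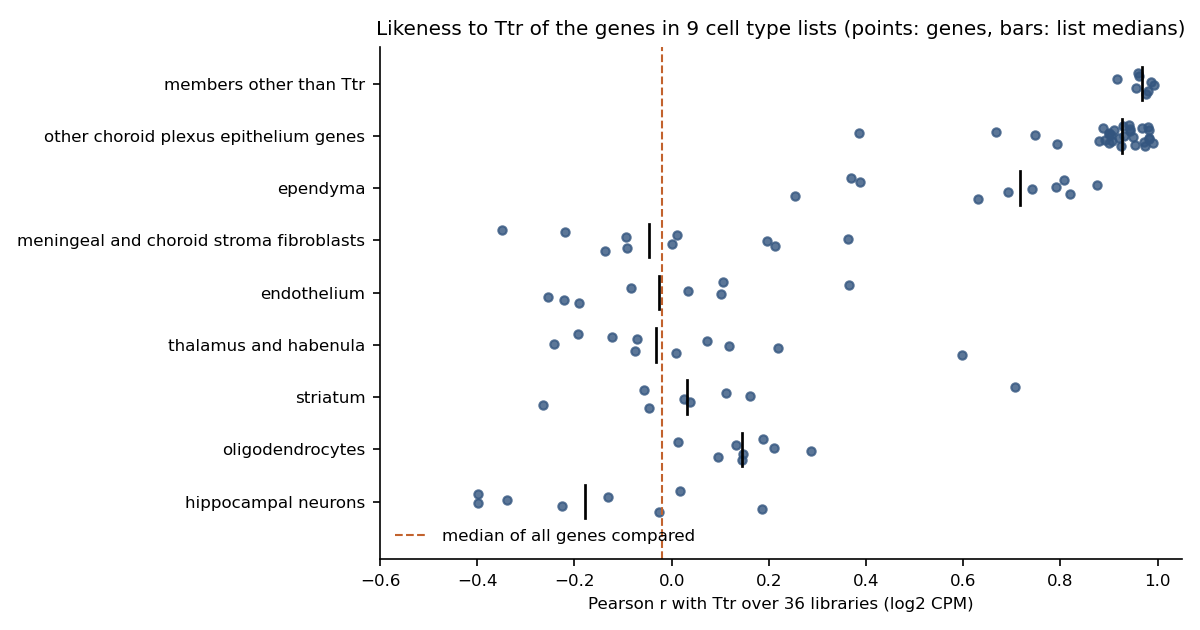
Pearson's r with Ttr over 36 libraries (log2 CPM) for every gene of 9 cell type lists. Points are genes, black bars list medians and the dashed line the median of all 18185 genes, -0.019. The members other than Ttr lie between 0.916 and 0.992. The other choroid plexus genes run from 0.385 to 0.990 (median 0.926) and the ependymal genes from 0.253 to 0.876 (median 0.717). The medians of the remaining lists lie between -0.179 and 0.145.

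The first comparison of the design asks how mutants differ from WT at each time. In naive mice all 9 members had lower estimates in mutants, with a median log2 fold change of -1.74, and none was called (0 of 9 at an adjusted p below 0.05, edgeR), where the background was 0% of 17336 genes tested (0 called, 1066 at an unadjusted p below 0.05). Ttr averaged 2296 CPM in WT and 506 CPM in mutants, a log2 fold change of -2.57 ± 1.52 (SE) with an edgeR adjusted p of 0.862. Of the 6 mutant libraries, 5 lay below the WT median of Ttr. Kl, at 116 and 45 CPM, had the smallest unadjusted edgeR p of the members, 0.0363, with an adjusted p of 0.79, and was the only 1 of 9 below 0.05 before adjustment. That count was 7 in DESeq2 with sex, beside 6.76% of all genes, and 5 with all 36 libraries in 1 fit, beside 7.21%. Without mutant 0 h male 1 it was 9, beside 9.04% of genes, and without WT 0 h male 3 it was 6, beside 6.79%. It was 0 or 1 in the other 10 fits that left a library out. The difference in Ttr moved between -4.41 without mutant 0 h male 1 and -1.64 without WT 0 h female 2.

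At 1 h the pattern was alike. The members' median log2 fold change was -1.98 and 0 of 9 were called by edgeR, beside 0% of 17261 genes (0 called, 1487 at an unadjusted p below 0.05). Ttr averaged 1354 CPM in WT and 264 CPM in mutants, with a log2 fold change of -2.95 ± 1.29 and an edgeR adjusted p of 0.574, and -3.38 without WT 1 h male 1. Otx2, at 6.08 and 1.99 CPM, had the smallest edgeR p, 0.0194 (adjusted 0.457). Of the 9 members, 7 had an unadjusted p below 0.05, a count that rested on single libraries. With a library left out it was 0 without WT 1 h male 2, 1 in 7 fits, and 8 or 9 in the remaining 4, among them 9 without WT 1 h male 1. In those fits the share of all genes below 0.05 before adjustment ran from 7.34% to 10.3%. The members' count was 9 in DESeq2 with sex, beside 9% of all genes. With the replicate block (labelled sex and number) it was 0, beside 9.07%. In the same comparison 9 of 10 thalamus and habenula genes had higher estimates in mutants, with a median of 0.45 and 0 called. In naive mice 8 of 8 striatum genes (median 0.50) and 8 of 8 oligodendrocyte genes (median 0.11) did, with 0 called by edgeR. All 30 other choroid plexus genes had lower estimates in mutants at 0 and 1 h (medians -1.33 and -1.14), with 0 called.

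At 3 h the estimates were smaller. The median of the members was -0.61, with 0 of 9 called by edgeR, beside 0.0115% of 17394 genes. Of the other choroid plexus genes 29 of 30 had lower estimates in mutants (median -0.50). All 10 thalamus and habenula genes (median 0.15) and all 8 oligodendrocyte genes (median 0.26) had higher ones. EdgeR called 0 genes in each of these lists. Ttr averaged 2377 CPM in WT and 1356 CPM in mutants, a log2 fold change of -0.64 ± 1.43 with an interval of -3.87 to 2.58 and an edgeR adjusted p of 0.953. This value hung on single libraries: it was -2.54 without mutant 3 h female 2, one of the libraries with sex markers against the label, and 1.07 without WT 3 h female 1.

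The second question is how each genotype changed after training. In WT, Ttr had a log2 fold change of -0.79 ± 1.36 at 1 h and -0.35 ± 1.61 at 3 h, with edgeR adjusted p of 0.962 and 0.985. The medians of the members were -0.62 and -0.21, and 0 of 9 were called at either time, beside 0% of 17319 and 0% of 17438 genes (928 and 1436 genes at an unadjusted p below 0.05). Mean Ttr CPM was 2296, 1354 and 2377 at 0, 1 and 3 h, so at 3 h the plain means and the sex-adjusted estimate differed in direction. Without WT 1 h male 1 the 1 h value of Ttr was -0.54, without WT 1 h male 2 it was -1.90, and without WT 0 h female 2 it was 0.03. The 3 h value turned to 0.58 without WT 0 h female 2 and was -1.48 without WT 3 h female 1.

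In mutants Ttr had a log2 fold change of -1.17 ± 1.07 at 1 h, with 0 of 9 members called by edgeR where 54 of 17282 genes, 0.312%, were. At 3 h it was 1.57 ± 1.31, with a median of 1.02 over the members and again 0 of 9 called, beside 0% of 17285 genes (1481 at an unadjusted p below 0.05). The edgeR adjusted p of Ttr was 0.748 and 0.816. Without mutant 3 h female 2 the 3 h value of Ttr was -0.31, and without mutant 0 h male 1 the 1 h value was 0.22. The members' median at 3 h was 0.14 without mutant 3 h female 2, with 3 of 9 members below 0, and 1.77 without mutant 0 h male 1. Genes of other lists had estimates in 1 direction in mutants, with 0 called by edgeR in each list. At 1 h all 8 striatum genes (median -0.57, smallest adjusted p 0.114) and all 10 ependymal genes (median -0.56, smallest adjusted p 0.314) had lower estimates than at 0 h. All 8 oligodendrocyte genes did too, with a median of -0.04. At 3 h all 8 striatum genes did so again (median -0.36), while the members had higher estimates. Their part in these values was not tested. Both comparisons share the 0 h libraries, as do those of the WT.

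The genotypes were not shown to differ in their response. The interaction of genotype and time called 0 of 9 members at 1 h (0% of 17907 genes) and 0 of 9 at 3 h (0% of 17926 genes) by edgeR. For Ttr it was -0.21 ± 1.75 at 1 h, with an interval of -3.86 to 3.44, and 2.03 ± 2.02 at 3 h, with an interval of -2.18 to 6.25. Both intervals cover large differences in either direction. Without the libraries with sex markers against their label it was -0.47 at 1 h and 1.31 at 3 h, a setting added after seeing the data, with an edgeR adjusted p of 1 at both times.

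An exact two-sided permutation test on the mean log2 CPM of Ttr, a choice added after seeing the data, gave p between 0.0909 and 0.87 over the 7 comparisons (0.636 to 0.87 adjusted). The smallest of them was for mutants against WT at 1 h, with a difference of -2.33. With 6 libraries against 6 such a test can reach 0.00216. Without WT 1 h male 1 the difference at 1 h was -2.96, with an exact permutation p of 0.039 before and 0.273 after adjustment over the 7 comparisons. For WT at 1 h the difference then turned from -0.27 to 0.35. Without mutant 3 h female 2 it moved, at 3 h, from -0.37 to -0.82 for genotype and from 1.22 to 0.77 for mutants. The adjusted exact permutation p was 0.866 in each of these. Means of log2 values weigh the libraries with little Ttr more than the edgeR fit does.

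Over all 36 libraries, with time and labelled sex in the model, mutants had lower estimates for all 9 members and none was called by edgeR. The background was 1.3% of 18186 genes called and 15.2% at an unadjusted p below 0.05, a level that all 9 members passed. Because the members rise and fall together, these 9 p-values repeat largely 1 measurement. Ttr averaged 2009 CPM in 18 WT and 709 CPM in 18 mutant libraries, a log2 fold change of -2.08 ± 0.816 with an interval of -3.75 to -0.42 and an edgeR adjusted p of 0.197. Kl, at 114 and 56.2 CPM, had the smallest adjusted p, 0.0673, with a log2 fold change of -1.09 ± 0.305. Prlr followed at 0.077, with 37 and 13.4 CPM and a log2 fold change of -1.66 ± 0.485. The members' median was -1.66, beside a median of 0.00 over all genes.

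This call depended on the tool and on the sex labels. DESeq2, the tool of the study, with sex in the model called 6 of 9 members lower in mutants, namely Ttr, Folr1, Kl, Aqp1, Prlr and Enpp2, beside 2.81% of 19777 genes. Without a covariate it called 2, Kl and Prlr, beside 2.65% of 18870 genes. EdgeR called 3, Kl, Prlr and Enpp2, without the 2 libraries with sex markers against their label, beside 2.77% of 18283 genes, and Ttr was then at -2.66 with an adjusted p of 0.0756. It called 2, Kl and Prlr, with sex taken from the sex-linked genes, beside 1.78% of 18186 genes, a setting added after seeing the data. In the list of 30 other choroid plexus genes all 30 estimates were lower in mutants, with a median of -1.06, and 0 were called by edgeR (smallest adjusted p 0.0582). The ependymal list had a median of -0.08 and the hippocampal neuron list one of -0.14, each with 0 genes called. The lists of other regions and of the remaining cell types had medians above 0. The thalamus and habenula list had a median of 0.32, with 9 of 10 genes higher in mutants, and the striatum list one of 0.20, with 8 of 8 higher. All 8 oligodendrocyte genes also had higher estimates, with a median of 0.13, while the fibroblast and endothelium lists had medians of 0.12 and 0.02. EdgeR called 0 genes in each of these lists, with smallest adjusted p from 0.0524 for fibroblasts to 0.516 for endothelium. The summed level of the thalamus and habenula list had medians of 78.6, 84.3 and 75.8 CPM in WT at 0, 1 and 3 h and of 104, 101 and 90.8 CPM in mutants, with overlapping ranges at each time. The part of tissue make-up in the genotype comparison was not tested.

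The libraries were also compared by labelled sex. Females had lower estimates than males for all 9 members, with a median log2 fold change of -1.13, and 0 of 9 were called by edgeR, beside 0.0825% of 18186 genes. Ttr averaged 1875 CPM in 18 libraries labelled male and 843 CPM in 18 labelled female, a log2 fold change of -1.60 ± 0.799 with an edgeR adjusted p of 0.948. With sex taken from the sex-linked genes it was -2.21, with an adjusted p of 0.416. Without the 2 libraries with sex markers against their label it was -2.17, with an edgeR adjusted p of 0.546, and 0 members were called. An unadjusted p below 0.05 was held by 4 of 9 members with the labelled sex, beside 5.08% of all genes, and by 9 of 9 without the 2 libraries, beside 7.78%. In the fit by labelled sex all 30 other choroid plexus genes (median -0.71) and all 10 ependymal genes (median -0.37) had lower estimates in females, and 9 of 10 fibroblast genes had higher ones (median 0.27, smallest adjusted p 0.374). EdgeR called 0 genes in each of these lists, and their part in the result was not tested. In bulk tissue, fewer choroid plexus cells in a sample and less RNA of these genes per cell cannot be told apart, in this and in the comparisons above.

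**Figure D4:**
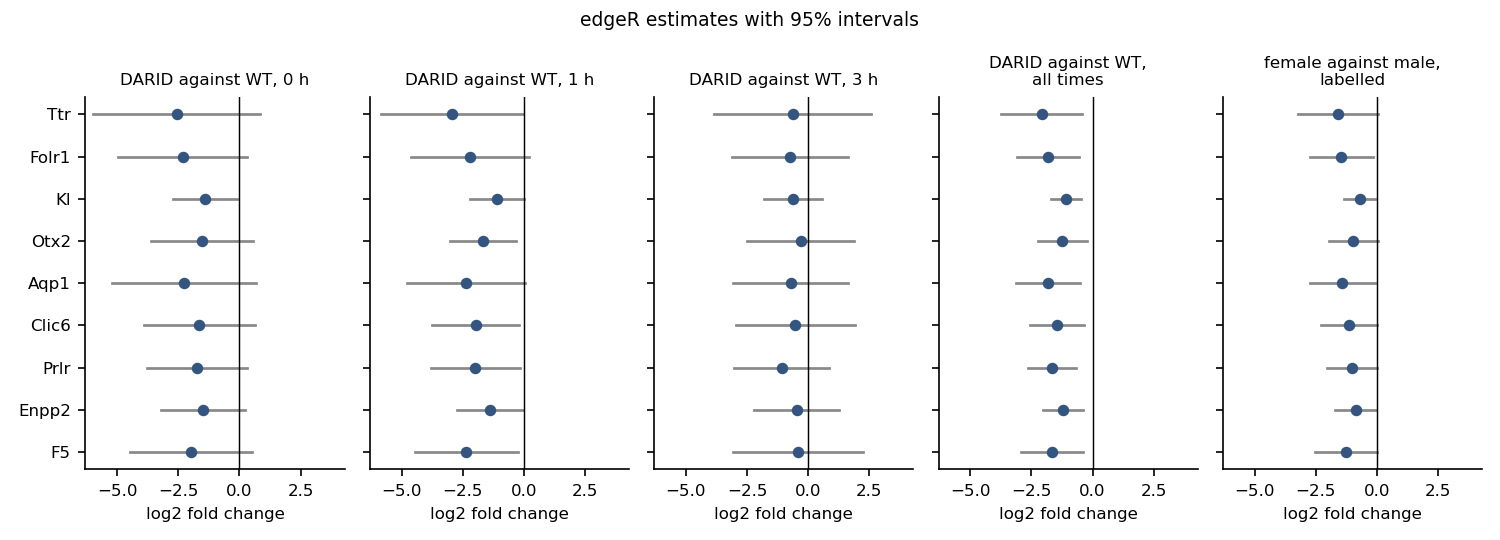
Log2 fold change of each member with its 95% interval from edgeR, for mutants against WT at 0, 1 and 3 h, for all times together and for labelled females against males. All estimates lie below 0, and the Ttr interval narrows from -6.00 to 0.86 at 0 h to -3.75 to -0.42 over all times.

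F5 lies on chromosome 1 (GRCm38 chr1:164151835-164220277, 7430 bp of exon), 29.5 Mb from Kdm5b at chr1:134560178-134632878, and it overlaps Gm16548, which was also counted. The strand setting of the counting is not given in the sources used here, so reads of these 2 genes could not be separated. The other members lie elsewhere, Otx2 on chromosome 14 (48656781 to 48667644), Prlr and Enpp2 on chromosome 15 (10177238 to 10349190 and 54838901 to 54952789), Clic6 on 16 (92498147 to 92541241), Ttr on 18 (20664209 to 20674326), Kl on 5 (150952607 to 150993817), Aqp1 on 6 (55336299 to 55348555) and Folr1 on 7 (101858331 to 101870788). None of these 8 overlaps another counted gene. F5 did not stand apart from the members on other chromosomes, with a log2 fold change of -1.67 ± 0.618 over all times beside their range of -2.08 to -1.09.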

How the data were processed

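Total RNA of dorsal hippocampus was sequenced after mRNA enrichment (paired-end, Illumina NovaSeq). The authors aligned reads to mm10 with STAR 2.7.8a and counted them with featureCounts 2.0.1, and what they deposited for each library is a table of unscaled counts per gene. Annotation, strand and multi-mapping settings are not given in the sources used here. Each of the 36 files held 27179 gene identifiers, of which 25275 were named from the RefSeq table of GRCm38.p6. The 1904 unnamed genes held 1.284% of counts and stayed in the totals. Library totals ran from 40274435 to 107000233 counts. The precision of the group comparisons followed from the spread between libraries, given as SE. An earlier cohort of the series was not analysed here.

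Each comparison used its 12 libraries in edgeR 4.0.16 (filterByExpr with a minimum count of 10, TMM factors, robust quasi-likelihood F-test, labelled sex as covariate), with Benjamini-Hochberg adjustment over all genes tested and calls at 0.05. The pooled fits used 36 libraries, with time and sex (for genotype) or group (for sex), and the interactions the 24 libraries of 2 times. Correlations used log2 CPM with a prior count of 2. Software was R 4.3.3, DESeq2 1.42.0, Python 3.11.15, SciPy 1.17.1, pandas 2.3.3 and Matplotlib 3.10.9. Sex was checked with Xist and the summed counts of Ddx3y, Eif2s3y, Uty and Kdm5d (at least 1000 for a male library). Alternatives were DESeq2 with and without sex, RLE factors, other filters, all 36 libraries in 1 fit, a replicate block, no covariate and each library left out in turn.

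The members, the marker lists and the tests were chosen with earlier results of these data known. Genes named were the 9 members, the 10 others most like Ttr, up to 3 examples per list (1 example is not reported here), Kdm5b and the genes of the sex check. Slc22a8, Ccdc153, Six3 and Chrnb4 were named after their values were seen. The edgeR step was tested on simulated data.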

Additional observations from a re-analysis of the deposited data

Results flagged for a closer look

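Within the 6 libraries of a group, 2 values stood farther from the nearest other library than Dixon's 95% limit for 6 samples allows, on log2 CPM. Both were the high end of naive mutants and both came from male 1, with Kl at 103 CPM beside a next value of 36.5 CPM and Enpp2 at 1309 CPM beside a next value of 357 CPM. At such a limit about 1 in 20 combinations would pass by chance, and 2 of the 54 gene and group combinations tested did. The 54 were not independent, since the members rise and fall together. Ttr in the same library, at 2390 CPM beside a group median of 146.5 CPM, did not pass the limit.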

How the results depend on the processing

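The number of members called was 0 under 70 of 74 alternative settings and in all 84 fits that left out 1 library (lowest 0 and highest 0 in each of the 7 comparisons of 12 libraries). The pooled genotype, sex and interaction fits were not repeated with single libraries left out. The 4 exceptions were all in the pooled genotype comparison, so there 4 of 8 alternative settings called members. There DESeq2 called 6 with sex as covariate and 2 without a covariate, and edgeR called 3 without the 2 libraries with sex markers against the label and 2 with sex taken from the sex-linked genes. DESeq2 with sex also took Ttr past the threshold, at -2.09 with an adjusted p of 0.0396. The cause was not tested.

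The Ttr log2 fold change changed sign under 3 settings. In WT at 3 h it became 0.05 without a sex covariate, in DESeq2 and in edgeR, and the members' median became 0.21 in both. In mutants at 3 h against 0 h it became -0.31 without the library with sex markers against its label. The members' median for genotype at 3 h moved to -1.70 without that library. With each library left out in turn, the Ttr value ran from -4.41 to -1.64 for genotype at 0 h, -3.63 to -2.34 at 1 h and -2.54 to 1.07 at 3 h. It ran from -1.90 to 0.03 and -1.48 to 0.58 for WT at 1 and 3 h, and from -1.76 to 0.22 and -0.31 to 3.19 for mutants. Its sign turned without WT 3 h female 1 (genotype at 3 h), without WT 0 h female 2 (WT at 1 and 3 h), without WT 3 h female 2 or female 3 (WT at 3 h, 0.05 for each), without mutant 0 h male 1 (mutants at 1 h) and without mutant 3 h female 2 (mutants at 3 h). The members' medians ran from -1.70 to 0.35 for genotype at 3 h, -0.84 to 0.58 for WT at 3 h, -1.28 to 0.17 for mutants at 1 h and 0.14 to 1.77 for mutants at 3 h. They ran from -2.52 to -1.15 and -2.49 to -1.44 for genotype at 0 and 1 h, and from -1.38 to -0.03 for WT at 1 h.

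With labelled sex and number as a replicate block, edgeR called 0 members in all 7 comparisons, and Ttr ran from -2.96 for genotype at 1 h to 0.97 for mutants at 3 h. Same-numbered libraries had correlations of -0.241 to 0.314 over 42 pairs, 21 over 0.1 and 13 best with their own number, so the numbers were not read as pairs. Fold spans and r changed little with scaling, with Folr1 at 0.979 by Spearman's rho and Aqp1 at 0.983 without the 2 farthest libraries as the only shifts beyond the spread of the within-group values. Each member had at least 20 counts in every library. The lowest counts of Folr1, Aqp1 and Otx2 were 20, 20 and 23, beside 788 for Ttr. Depth thus limited how exactly the low ends of Folr1, Aqp1 and Otx2 were measured.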
